A study of Schizosaccharomyces pombe with 12 samples.

Results

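Deletion of the fission yeast gene for Dicer was set against wild type across every feature of a whole-genome tiling array, by comparing the 3 arrays of the dcr1Δ strain with the 3 arrays of the wild-type strain. These were 6 of the 12 arrays of a study of Dicer, the other 6 being 3 each of the mutants dcr1ΔC33 and dcr1-SHSS. The dcr1Δ strain (SPB81) and the wild-type strain (SPB80) of Schizosaccharomyces pombe were collected at an OD600 of 0.5, and each array received 200 ng of total RNA. The labels name no other allele, reporter, mating type or marker for either strain and no growth medium. The 3 arrays of a strain were biological replicates per the series' design text, and the labels do not say whether they came from more than 1 isolate of it. A level is the log2 value that the authors deposited for 1 gene or non-coding RNA on 1 array, and 5483 such features were measured.

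Dicer makes the small interfering RNAs of RNA interference, by cutting long double-stranded RNA. In fission yeast an RNA-dependent RNA polymerase makes the double strands from transcripts of the centromeric repeats, Argonaute carries the small RNAs back to those transcripts, and the histone methyltransferase Clr4 builds heterochromatin there. The pathway is best known for keeping the centromeric repeats silent, and it also touches the ends of chromosomes and a set of genes in euchromatin.

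At an adjusted p under 0.05 a small part of the transcriptome differed, nearly all of it higher in dcr1Δ. The largest changes were in non-coding RNAs of the centromeres and in a handful of genes elsewhere. Of 5483 features, 154 were higher in dcr1Δ than in wild type (2.81%) and 18 were lower (0.328%), together 172 (3.14%), at an adjusted p under 0.05 in limma with Benjamini-Hochberg adjustment. Only 56 of those higher and 6 of those lower had changed by at least 1.5-fold, and 26 and 3 by at least 2-fold. The median change of the features called was 0.45 among those higher and -0.27 among those lower (log2). The split was 100 higher to 28 lower after quantile normalization. Without regard to the test, all 3 dcr1Δ arrays lay above all 3 wild-type arrays for 636 features and below them for 518. Same-numbered arrays of the strains tended to deviate together, though weakly for array 1, and with the replicate number as a block 250 features passed as higher and 45 as lower. A core of 49 higher and 5 lower features passed in every refit run at the same threshold, 12 in all, or 11 for dim features, which the refit without the lowest 20% leaves out. Without the dcr1Δ array 2, 82 features passed in all, without the dcr1Δ array 3, 95, and without the wild-type array 2, 96.

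**Figure D1:**
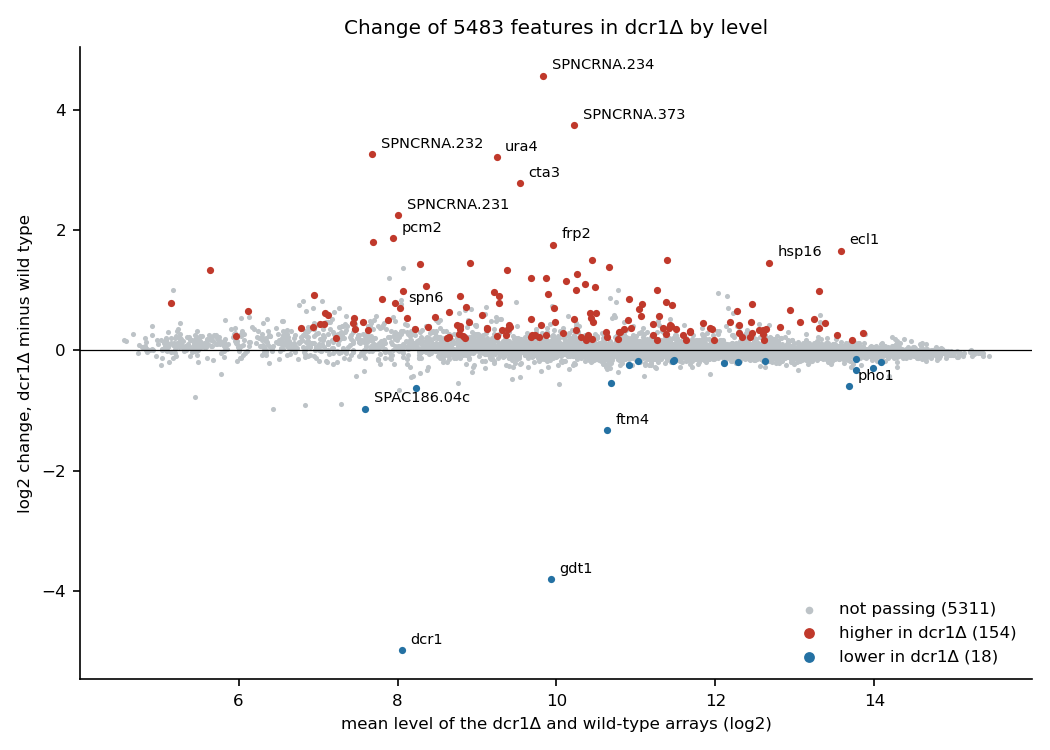
Log2 change of each feature (dcr1Δ minus wild type, vertical axis) against its mean log2 level over the 6 arrays (horizontal axis), with features higher in dcr1Δ in red, lower in blue and not passing in grey. SPNCRNA.234, SPNCRNA.373, SPNCRNA.232, ura4, cta3 and SPNCRNA.231 stand highest, from 4.57 to 2.25, and dcr1 (-4.99) and gdt1 (-3.81) lie far below the rest.

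The arrays of the strains were alike in scale. Array medians lay between 11.37 and 11.42 (log2) over all 12 arrays, the median SD of a feature over 3 arrays was 0.0697 in dcr1Δ and 0.0715 in wild type, and the median change over all features was 0.00. Dim features tilted upwards: with the features ranked into 5 equal groups by mean level, the median change was 0.098 and 4.47% were higher in the dimmest group, against -0.029 and 1.00% in the brightest. Non-coding RNAs are mostly dim, and the part of this tilt in their counts was not tested. The labelling assay made double-stranded target, so transcripts of the opposite strands of 1 place cannot be told apart, and 57 of the features called overlap another measured feature in the reference annotation.

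The deleted gene itself was at the floor of the arrays. dcr1 read 5.52, 5.80 and 5.37 on the dcr1Δ arrays, against 10.49, 10.57 and 10.60 on the wild-type arrays. The groups stood far apart, and the dcr1Δ level was at least 31.8-fold lower (log2 change -4.99 ± 0.09, SE, adjusted p 1.15e-10 in limma). On the dcr1Δ arrays 1.64%, 2.61% and 1.33% of features lay below dcr1, so a level near 5.80 may hold little more than background. In wild type 153 features had a mean at or under that level, and 3 of those passed the test, all non-coding RNAs (SPNCRNA.218, SPNCRNA.397 and SPNCRNA.481). In the other mutants, which keep a mutated dcr1, the gene averaged 10.87 ± 0.02 in dcr1ΔC33 and 10.67 ± 0.03 in dcr1-SHSS (SD, n = 3 each).

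Of the genes directly beside dcr1 on chromosome III, spn6 was called and svf1 was not, and further calls lay a few places away. spn6, a septin of sporulation whose annotated interval overlaps dcr1, read 8.40, 8.38 and 8.37 in dcr1Δ and 7.79, 7.46 and 7.80 in wild type (0.70 ± 0.10, adjusted p 0.00274 in limma). spn6 was higher still in dcr1ΔC33 (9.15 ± 0.09) and dcr1-SHSS (9.08 ± 0.15, SD, n = 3), where dcr1 was not removed. svf1, the neighbour on the other side, did not pass (0.00 ± 0.03, adjusted p 0.985 in limma). The third measured feature beyond dcr1, mug42, was higher by 0.25 ± 0.05, and SPCC584.16c at the seventh place by 0.25 ± 0.06. Of 12 alternatives mug42 lost its call in 7 and SPCC584.16c in 6. Over all features 2.81% were higher.

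The centromeres gave the largest increases of all, in a few non-coding RNAs on chromosomes I and II. The probes covered 13 features within the centromere gaps of the gene order: 4 on chromosome I between per1 and emc5, 7 on chromosome II between rpb1 and yox1, and 2 on chromosome III between meu27 and ppc1. Of these, 5 passed the test, all higher, and of all features 2.81% were higher.

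SPNCRNA.234, on chromosome I, read 12.23, 12.22 and 11.90 in dcr1Δ, against 8.03, 6.80 and 7.82 in wild type. It was the largest increase among the features measured at 23.8-fold (4.57 ± 0.25, adjusted p 2.06e-06 in limma), and its wild-type array 2 was more than 1 log2 unit under the others. On chromosome II, SPNCRNA.373 read 11.89, 12.22 and 12.17 in dcr1Δ and 8.12, 8.08 and 8.84 in wild type (13.4-fold, 3.75 ± 0.18, adjusted p 6.27e-07). Both RNAs reached levels above the array medians in dcr1Δ and lay well below them in wild type.

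The other centromeric RNAs of chromosome I were dimmer. SPNCRNA.232 read 9.18, 9.51 and 9.27 in dcr1Δ, against 5.80, 5.94 and 6.43 in wild type (3.27 ± 0.24, adjusted p 3.02e-05). SPNCRNA.231, its neighbour, read 9.16, 8.99 and 9.27 in dcr1Δ and 6.75, 6.96 and 6.95 in wild type (2.25 ± 0.11, adjusted p 7.84e-07). SPNCRNA.233 read 5.07, 6.16 and 5.81 in dcr1Δ and 4.80, 4.66 and 4.57 in wild type and did not pass (1.00 ± 0.27, adjusted p 0.081). The arrays of the strains did not overlap for SPNCRNA.231, SPNCRNA.232 or SPNCRNA.233, as they did not for 21.0% of all features.

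On chromosome III only a feature at the floor passed. SPNCRNA.481 read 5.40, 5.49 and 5.71 in dcr1Δ and 4.70, 4.45 and 5.10 in wild type (0.79 ± 0.16, adjusted p 0.0238 in limma), all under the highest level of the deleted dcr1, and the call was lost in 5 of 11 alternatives, including the fit of both strains alone. SPNCRNA.480 did not pass (-0.05 ± 0.11). The remaining 6 features of the chromosome II gap did not pass either. Among them SPNCRNA.364 read 8.13, 7.68 and 8.85 in dcr1Δ and 8.20, 6.70 and 8.07 in wild type, and SPNCRNA.366 read 7.86, 6.61 and 8.44 in dcr1Δ and 8.19, 6.64 and 6.34 in wild type, with overlapping arrays in both. The other 4 stayed between 4.65 and 6.36 on every dcr1Δ array. Features of the repeats share sequence, and probes that match several copies cannot be told apart here.

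The protein-coding genes that flank the centromeres did not follow. Of 43 measured features within and just outside the gaps, 5 were higher (11.6%, against 2.81% of all features) and 0 lower, and those 5 were the non-coding RNAs above. Of the flanking genes, yox1, a repressor of G1/S transcription, had the largest change and did not pass (0.26 ± 0.08, adjusted p 0.106 in limma, 0.0288 with the replicate block).

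**Figure D2:**
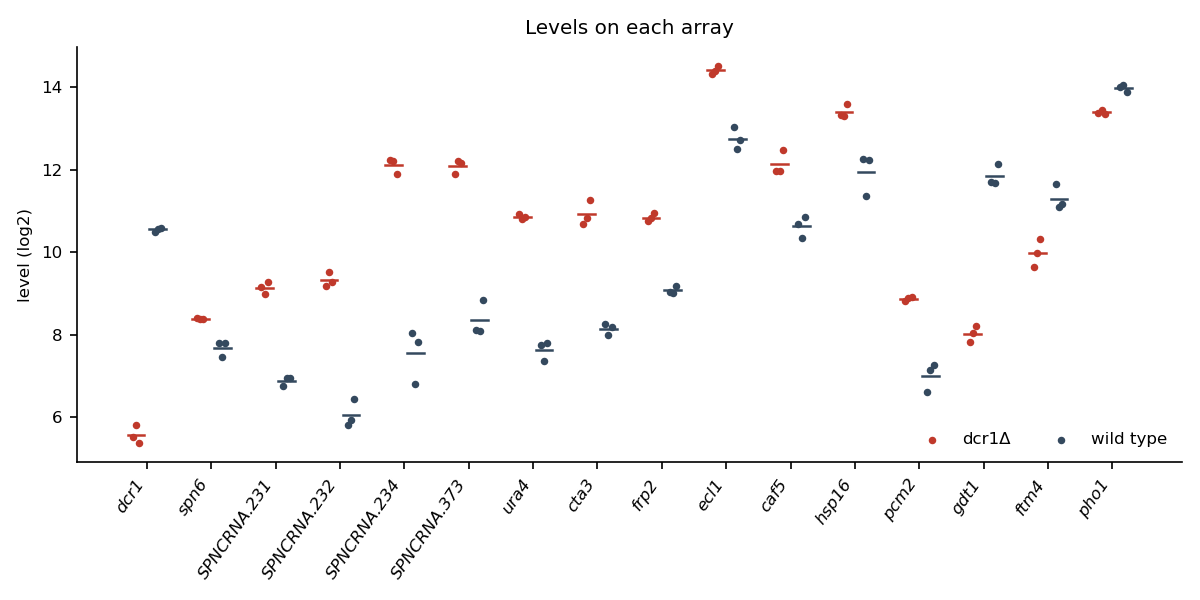
Log2 level of 16 features on each array, with the 3 dcr1Δ arrays at the left in red and the 3 wild-type arrays at the right in dark blue, and a bar at each mean. For SPNCRNA.234 the dcr1Δ arrays sit between 11.90 and 12.23 and the wild-type arrays between 6.80 and 8.03, and for gdt1 the dcr1Δ arrays sit between 7.82 and 8.21 and the wild-type arrays between 11.69 and 12.13.

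Among the protein-coding genes the largest increase was in ura4, the orotidine phosphate decarboxylase of pyrimidine synthesis and a widely used strain marker. ura4 read 10.93, 10.80 and 10.85 in dcr1Δ, against 7.76, 7.36 and 7.79 in wild type (9.34-fold, 3.22 ± 0.10, adjusted p 2.25e-08 in limma). Its neighbours on chromosome III, mug135 (0.23 ± 0.09, adjusted p 0.214) and pmp20 (0.02 ± 0.05, adjusted p 0.861), did not pass. The ura4 level was also high in dcr1ΔC33 (10.56 ± 0.08) and dcr1-SHSS (10.39 ± 0.05, SD, n = 3). The labels give the ura4 allele of no strain, and whether the strains differ at ura4 other than through dcr1 was not tested.

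Of 14 strain marker genes, ura4 was the only one called (7.14% higher, against 2.81% of all features), and the changes of the rest lay between -0.08 and 0.04, with trp1 at -0.08 ± 0.04 and leu1 at -0.07 ± 0.04. Among 12 genes of uracil salvage and pyrimidine synthesis, 2 were higher (16.7%, against 2.81% of all features) and 0 lower. The other was urh1, a uridine ribohydrolase of the salvage route, which read 10.71, 10.69 and 10.69 in dcr1Δ and 9.67, 9.29 and 9.69 in wild type (1.15 ± 0.11, adjusted p 0.00025 in limma). urg1, a uracil-regulated gene, had a change of 0.96 ± 0.24 without passing (adjusted p 0.0557). The synthesis genes ura1 (-0.11 ± 0.04) and ura2 (-0.07 ± 0.05) did not pass.

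Among the gene lists outside the non-coding RNAs, that of the shared stress response held the most increases. Of 28 genes known to be induced by many stresses, 9 were higher and 0 lower (32.1%, against 2.81% of all features), with a median change of 0.141, against 0.00 over all features. 4 of the 9 passed in every refit: cta3, ecl1, hsp16 and zym1. The list was drawn up with earlier results of these data known, so its share is a description and not a test.

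cta3, a cation-transporting ATPase, read 10.69, 10.84 and 11.26 in dcr1Δ, against 8.27, 8.0 and 8.18 in wild type (6.88-fold, 2.78 ± 0.15, adjusted p 2.14e-06 in limma). Its overlapping non-coding RNA SPNCRNA.319 did not pass (0.40 ± 0.21), nor did its neighbour ibp1 (-0.02 ± 0.07). ecl1, a small protein that extends chronological lifespan, read 14.32, 14.40 and 14.52 in dcr1Δ and 13.04, 12.51 and 12.72 in wild type (3.15-fold, 1.66 ± 0.11, adjusted p 1.05e-05). It reached one of the brighter levels among the genes that rose, and the gene beside it, SPCC70.04c, rose with it: 11.12, 11.30 and 11.65 in dcr1Δ and 10.03, 9.93 and 9.95 in wild type (1.39 ± 0.11, adjusted p 3.55e-05).

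hsp16, a small heat shock protein, read 13.34, 13.31 and 13.59 in dcr1Δ and 12.25, 11.37 and 12.24 in wild type (1.46 ± 0.19, adjusted p 0.00196 in limma), with the wild-type array 2 lowest. zym1, a metallothionein that binds zinc, read 10.67, 11.13 and 10.87 in dcr1Δ and 9.74, 9.65 and 9.46 in wild type (1.27 ± 0.14, adjusted p 0.000448). In both genes every dcr1Δ array was above every wild-type array, as in all 154 features called higher. Over all features, 21.0% had arrays that did not overlap. The other 5 had smaller changes: srx1, a sulfiredoxin (0.68 ± 0.15), tms1, a hexitol dehydrogenase (0.57 ± 0.12), isp6, a protease (0.34 ± 0.06), hsp9 (0.29 ± 0.06) and sro1 (0.18 ± 0.03). The calls of srx1, tms1 and hsp9 were each lost without any 1 of at least 4 of the 6 arrays.

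Other lists of stress genes held fewer calls. Of 20 genes of peroxide defence, 3 were higher (15.0%, against 2.81% of all features) and 0 lower: srx1, sod1 (a superoxide dismutase, 0.33 ± 0.07) and caf5. Without the dcr1Δ array 2 or 3, or the wild-type array 1 or 2, srx1 and sod1 both lost their calls, whereas caf5 kept its call in every refit. caf5, an efflux transporter of the major facilitator family, read 11.96, 11.97 and 12.49 in dcr1Δ and 10.69, 10.35 and 10.86 in wild type (1.51 ± 0.17, adjusted p 0.000693 in limma). Both caf5 and srx1 were brightest on array 3 in dcr1Δ and on array 3 in wild type, and the same-numbered differences of caf5 were 1.28, 1.62 and 1.63.

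Of 21 heat shock proteins and chaperones, hsp16 alone passed (4.76% higher, against 2.81% of all features) and 0 were lower. ssa1 (0.59 ± 0.18, adjusted p 0.127) and hsp104 (0.28 ± 0.10, adjusted p 0.179) did not pass in limma, though both did with the replicate block, where 3 members were higher. Of 22 stress kinases and regulators 1 was higher (4.55%, against 2.81% of all features) and 0 lower. That was atf31, a bZIP transcription factor, which read 8.59, 8.52 and 8.61 in dcr1Δ and 7.87, 6.95 and 7.92 in wild type (0.99 ± 0.21, adjusted p 0.0349 in limma), and the call was lost without any 1 of the dcr1Δ arrays. The related atf21 had 0.72 ± 0.18 (adjusted p 0.0557) and atf1, the central factor of the pathway, 0.06 ± 0.07 (adjusted p 0.726), neither passing.

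Calls among genes of metal handling and transport were of single genes. Of 23 genes of metal and ion handling, 3 were higher (13%, against 2.81% of all features), cta3, zym1 and the zinc transporter zrt1 (0.22 ± 0.05), and 1 was lower (4.35%, against 0.328%). The list's median change was 0.028, and of 12 refits zrt1 lost its call in 6. The lower one was fex2, a fluoride exporter, which read 10.25, 10.60 and 10.41 in dcr1Δ and 10.99, 11.04 and 10.85 in wild type (-0.54 ± 0.10, adjusted p 0.0185 in limma), and its call was lost in 5 of 12 refits, 4 of them without 1 array.

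Of 17 genes of iron acquisition, 1 was higher (5.88%, against 2.81% of all features) and 0 lower. frp2, a ferric reductase, read 10.75, 10.83 and 10.94 in dcr1Δ and 9.03, 9.0 and 9.19 in wild type (3.39-fold, 1.76 ± 0.06, adjusted p 2.25e-08 in limma), among the tightest of the large changes. The other reductase, frp1, varied more between arrays and did not pass (0.32 ± 0.28, adjusted p 0.594), nor did the iron permease gene fip1 (0.23 ± 0.15). opt3, of the oligopeptide transporter family, read 11.08, 11.14 and 11.37 in dcr1Δ and 9.14, 9.76 and 10.20 in wild type (1.5 ± 0.2, adjusted p 0.00222), and it no longer passed in the fit of both strains alone. agp3, an amino acid permease, rose by 1.06 ± 0.11 (adjusted p 0.000301).

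Other increases of about 2-fold or more were in enzymes, a kinase and genes without a name. meu7 read 9.56, 9.61 and 9.74 in dcr1Δ and 8.30, 8.15 and 8.12 in wild type (1.45 ± 0.09, adjusted p 7.45e-06 in limma). ppk31, a protein kinase, rose by 1.43 ± 0.15, osr1 by 1.33 ± 0.17, SPBC24C6.09c by 1.20 ± 0.15, SPAC22A12.17c by 1.11 ± 0.10, SPBC3H7.08c by 1.07 ± 0.13, SPBC1773.03c by 1.01 ± 0.10 and psu2 by 1.00 ± 0.13. eno102, an enolase, read 10.37, 10.68 and 10.36 in dcr1Δ and 9.03, 9.08 and 9.66 in wild type (1.21 ± 0.20, adjusted p 0.00788). It and gpd3, a glyceraldehyde phosphate dehydrogenase (0.53 ± 0.09), were the 2 of 16 glycolysis enzymes that rose (12.5%, against 2.81% of all features), and 0 fell. The bright enolase eno101 did not pass (-0.17 ± 0.06, adjusted p 0.167). Of 21 genes of hexose transport and glucose repression 0 passed either way. The invertase gene inv1 came nearest (0.71 ± 0.18, adjusted p 0.0668 in limma). With the replicate block 1 passed as higher, agl1 (0.37, adjusted p 0.0461).

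Some genes of nitrogen response, meiosis and spore formation were called. Of 18 nitrogen-responsive genes 3 were higher (16.7%, against 2.81% of all features) and 0 lower: isp3, isp6 and psp3, the last 2 being proteases. isp3, a protein of the spore wall, read 9.70, 9.71 and 9.80 in dcr1Δ and 9.01, 8.72 and 8.74 in wild type (0.91 ± 0.11, adjusted p 0.000993 in limma). Of 30 early meiotic and sporulation genes 3 were higher (10.0%) and 0 lower, and these were isp3, spn6 and spo6, all 3 passing in every refit, spo6 with a change under 1.5-fold. spo6, a partner of the meiotic kinase Spo4, read 10.77, 10.60 and 10.73 in dcr1Δ and 10.28, 10.15 and 10.22 in wild type (0.48 ± 0.06, adjusted p 0.00196). rec15, a meiotic recombination gene outside that list, rose by 0.54 ± 0.06.

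The master regulators of meiosis did not pass: mei2 had -0.43 ± 0.43 and ste11 -0.20 ± 0.38, with adjusted p of 0.651 and 0.825 in limma. mei3, the inducer of meiosis, had 0.59 ± 0.15 (adjusted p 0.0576, and 0.0111 with the replicate block). Of 20 mating and pheromone genes 1 was higher (5.0%, against 2.81% of all features) and 0 lower. The 1 higher was map2 (0.36 ± 0.08), a pheromone precursor. Among 115 genes named mug or meu for their upregulation in meiosis, 8 were higher (6.96%, against 2.81% of all features and 4.47% of the dimmest of the 5 level groups) and 0 lower.

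**Figure D3:**
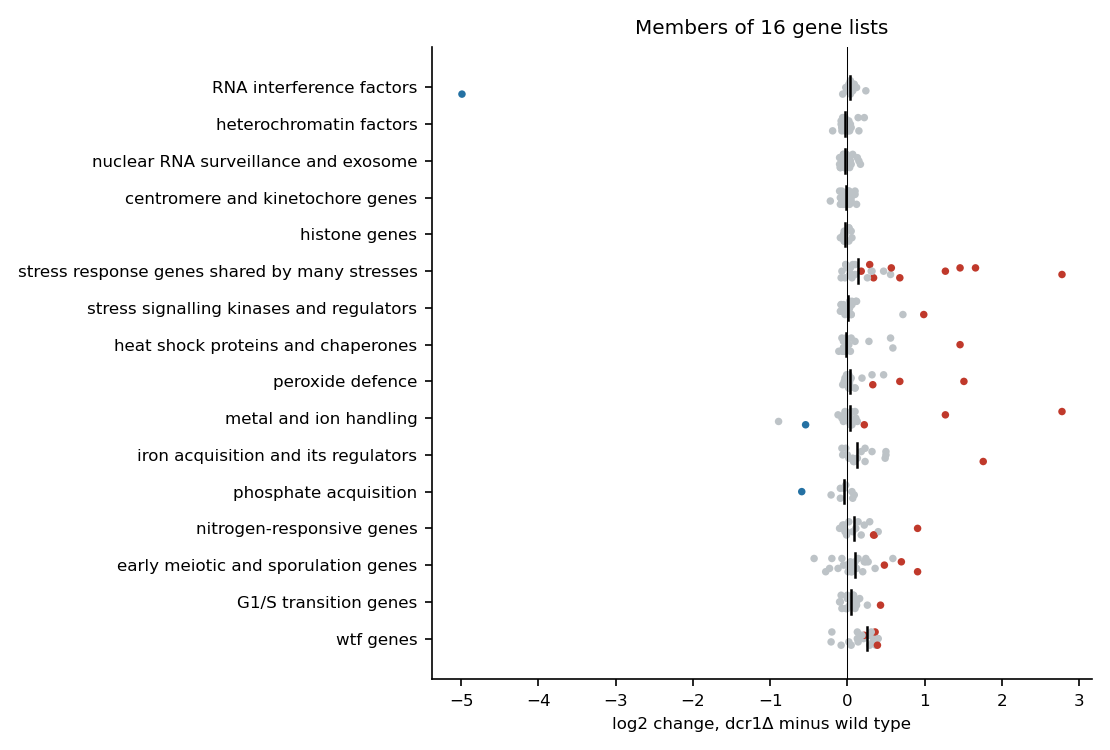
Log2 change (dcr1Δ minus wild type, horizontal axis) of every measured member of 16 gene lists, 1 row per list, with members higher in red, lower in blue and not passing in grey, and a black bar at the list's median. The 28 shared stress genes reach 2.78 (cta3) around a median of 0.141, while in the RNA interference list dcr1 at -4.99 is the only member apart from the rest.

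The genes of the silencing machinery gave no call besides the deleted one. Of 13 RNA interference factors dcr1 was the only one called. The RNA-dependent RNA polymerase gene rdp1 had 0.04 ± 0.05, and the gene tas3, for a partner of Argonaute, 0.07 ± 0.06. ago1, the Argonaute, had 0.12 ± 0.03 (adjusted p 0.0886) and cid12, a nucleotidyltransferase of the polymerase complex, 0.24 ± 0.07 (adjusted p 0.0946). With the replicate block both passed, at adjusted p of 0.0413 and 0.044 in limma, so that 2 members were higher.

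Of 26 heterochromatin factors 0 passed either way, with a median change of -0.034. The largest changes were in the histone chaperone asf1 (0.22 ± 0.07, adjusted p 0.113) and the centromere-binding protein gene cbh1 (-0.19 ± 0.07, adjusted p 0.177), and epe1, which opposes heterochromatin spreading, had -0.08 ± 0.08. Of 24 genes of the exosome and nuclear RNA surveillance 0 passed, of 27 centromere and kinetochore genes 0, and of 12 histone genes 0, with medians of -0.035, -0.020 and -0.036. In each of these 4 lists 0 members passed with the replicate block as well.

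The decreases were few, and the largest after dcr1 lay together near the right end of chromosome I. gdt1, named after the Golgi cation exchanger of budding yeast, read 7.82, 8.05 and 8.21 in dcr1Δ, against 11.70, 11.69 and 12.13 in wild type. It was 14.0-fold lower (-3.81 ± 0.14, adjusted p 5.69e-08 in limma). SPAC186.04c, the gene beside it, read 7.14, 6.94 and 7.26 in dcr1Δ and 8.31, 7.71 and 8.23 in wild type (-0.97 ± 0.14, adjusted p 0.00357), a call that was lost in the fit of both strains alone. ftm4, the measured feature closest to that end, read 9.64, 9.97 and 10.33 in dcr1Δ and 11.66, 11.09 and 11.16 in wild type (-1.32 ± 0.20, adjusted p 0.00405). The arrays of the strains did not overlap for any of the 3, as they did not for 21.0% of all features.

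Further from the same end the direction turned. SPAC186.02c, at the thirteenth measured place, read 8.63, 8.73 and 8.40 in dcr1Δ and 6.70, 6.64 and 7.04 in wild type (1.80 ± 0.18, adjusted p 0.000301 in limma). Next to it pfl9, a flocculin gene, read 8.26, 8.32 and 8.13 in dcr1Δ and 7.56, 7.08 and 7.48 in wild type (0.86 ± 0.16, adjusted p 0.015). At the 28th place pcm2, a protein repair methyltransferase, read 8.83, 8.89 and 8.91 in dcr1Δ and 6.61, 7.14 and 7.27 in wild type (1.87 ± 0.15, adjusted p 4.06e-05).

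In all, 9 of the last 30 measured features at that end were called, 6 higher and 3 lower, against 3.14% of all features. Of the 30 at each other end, 3 were called at the left and 2 at the right of chromosome II, 2 at the left and 0 at the right of chromosome III, and 0 at the left of chromosome I. Between gdt1 and ftm4, 7 features lay without a call, among them SPAC750.03c with a change of -0.35 ± 0.62. The others of the 6 higher were yhb1, a flavohaemoprotein, mel1, an alpha-galactosidase, and SPNCRNA.279, with changes of 0.59, 0.62 and 0.24, and the calls of yhb1 and mel1 were each lost in 7 alternatives. Of the 87 measured features among the 50 annotated genes nearest each chromosome end, 5 were higher (5.75%, against 2.81% of all features) and 4 lower (4.6%, against 0.328%). The genes of chromosome ends are repeated between ends, and probes shared between copies cannot be told apart here.

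**Figure D4:**
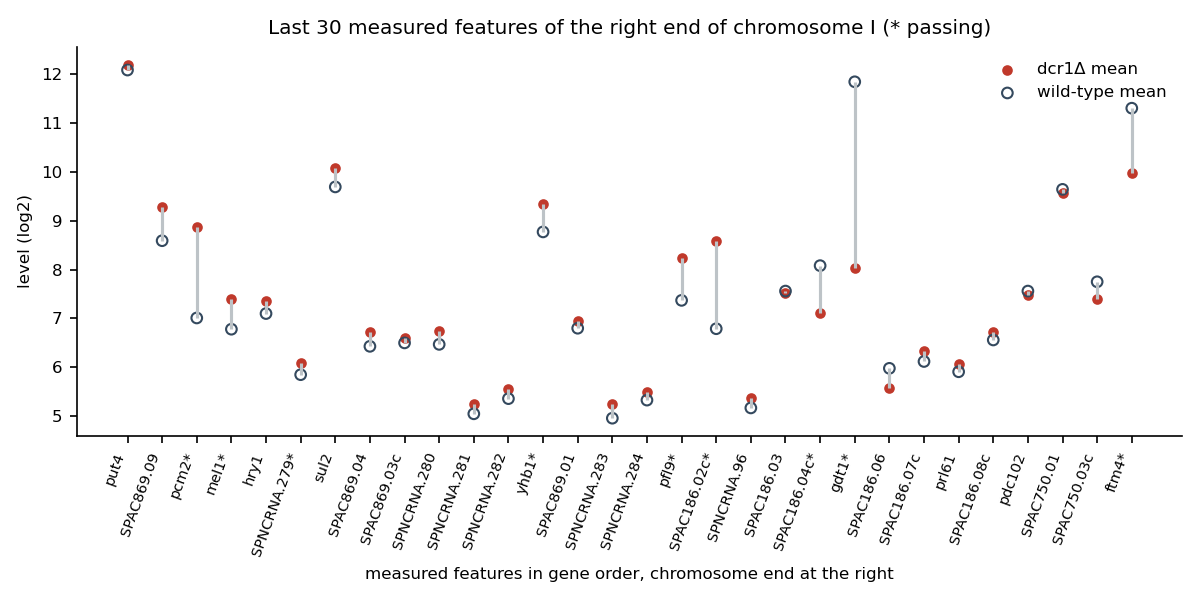
Mean log2 level in dcr1Δ (filled red) and wild type (open circles) of the last 30 measured features of chromosome I in gene order, with the chromosome end at the right and a star beside the name of each that passed. gdt1, SPAC186.04c and ftm4 are lower in dcr1Δ, with means of 8.03, 7.11 and 9.98 against 11.84, 8.08 and 11.30 in wild type, and pcm2 and SPAC186.02c are higher.

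On chromosome II 2 features fell by at least 1.5-fold. pho1, the main secreted acid phosphatase, read 13.37, 13.45 and 13.36 in dcr1Δ and 14.0, 14.05 and 13.89 in wild type (-0.59 ± 0.05, adjusted p 4.09e-05 in limma). It was the 1 of 9 phosphate genes to fall (11.1%, against 0.328% of all features), with 0 higher. The phosphate transporter gene pho84 beside it had -0.21 ± 0.07 and did not pass (adjusted p 0.182), but passed with the replicate block (adjusted p 0.0147). The pseudogene SPBPB10D8.03, near the left end, read 8.03, 7.89 and 7.83 in dcr1Δ and 8.66, 8.42 and 8.57 in wild type (-0.63 ± 0.09, adjusted p 0.00387), the 1 of 29 pseudogenes to fall (3.45%), with 0 higher. With the replicate block 2 pseudogenes were higher.

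The remaining decreases, fex2 included, were all under 1.5-fold. ssr3, a subunit of chromatin remodelling complexes, fell by 0.25 ± 0.03 (adjusted p 0.00196 in limma), and the Snf2-family remodeller fft2 fell by 0.17 ± 0.04. byr4 and dnt1 of the septation pathway fell by 0.17 and 0.16, the mitochondrial genes tuf1 and tim50 by 0.20 each, the spindle protein gene nsk1 by 0.21 and the translation factor gene tif471 by 0.15. Each of these except ssr3 lost its call without at least 1 array, and ssr3 lost its call in the fit of both strains alone. Of 139 ribosomal protein genes, taken by symbol, rpl1602 was the 1 lower (-0.32 ± 0.07, 0.719% of the list, against 0.328% of all features) and 0 were higher, and rpl1602 no longer passed with the replicate block. Of 23 ribosome biogenesis genes 0 passed. imp3 had 0.27 ± 0.09, and passed with the block (adjusted p 0.0224).

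The cell cycle lists each held a single call, and 2 each, all higher, with the replicate block. A single call was 4.76% of the G1/S genes and 5.88% of those of mitosis and cell separation, against 2.81% of all features. cdt1, the licensing factor of DNA replication, read 11.70, 11.57 and 11.66 in dcr1Δ and 11.22, 11.09 and 11.32 in wild type (0.43 ± 0.07, adjusted p 0.00646 in limma), 1 higher and 0 lower of 21 G1/S genes. cdc22, the ribonucleotide reductase of the same wave, did not pass (0.16 ± 0.05, adjusted p 0.103). spo12 was the 1 higher of 17 genes of mitosis and cell separation (0.46 ± 0.08, adjusted p 0.0139 in limma), with 0 lower. The spo12 call was lost without the dcr1Δ array 3 and in the fit of both strains alone. pfl9 was the 1 higher of 14 flocculins and surface glycoproteins (7.14%), with 0 lower.

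Non-coding RNAs as a class were called higher more often than the average feature. Of 474 measured, 31 were higher (6.54%) and 0 lower, against 2.81% higher of all features and 4.47% of the dimmest of the 5 level groups. The 31 include the 5 called RNAs of the centromere gaps. With the replicate block 46 non-coding RNAs were higher and 1 lower. Their median change was 0.117, against 0.098 in the dimmest of the 5 level groups of all features. Apart from the centromeric RNAs, the largest change was in the dim SPNCRNA.397 (1.34 ± 0.28, adjusted p 0.029 in limma, lost in 5 of 11 refits). SPNCRNA.65 read 10.40, 10.46 and 10.25 in dcr1Δ and 9.35, 9.56 and 9.40 in wild type (0.94 ± 0.15, adjusted p 0.00651 in limma). SPNCRNA.288 rose by 0.93 ± 0.12, prl14 by 0.90 ± 0.12 and SPNCRNA.583 by 0.85 ± 0.08. SPNCRNA.583 overlaps mug27, which rose by 0.55 ± 0.09, and the strands of that pair cannot be told apart. SPNCRNA.67 overlaps epe1 and rose by 0.63 ± 0.09.

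Of 24 wtf genes, the spore-killer family, 4 were higher (16.7%, against 2.81% of all features) and 0 lower, with changes of 0.22 to 0.39 (wtf10, wtf7, wtf20 and wtf14), and a family median of 0.247. None of the 4 calls held in every refit, and the members share sequence. Of 3 Tf2 retrotransposons measured 0 passed, with changes of 0.09 to 0.18. The single small nucleolar RNA did not pass (0.05 ± 0.04).

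Some called features were neighbours, and how many to expect from all features was not worked out. Of 163 placed on a chromosome, 25 lay in 12 runs of adjacent measured features that had moved the same way, 1 of the runs being of 3 features, SPNCRNA.313, gpd3 and SPNCRNA.315, and the rest pairs. The pairs included tms1 with adh8, an alcohol dehydrogenase that rose by 0.97 ± 0.11, lsd90 (0.99 ± 0.13) with SPNCRNA.571, and ecl1 with SPCC70.04c.

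Direct tests of dcr1Δ against the other mutants set most of these changes in order. All comparisons come from 1 fit and share the dcr1Δ arrays. A feature called against wild type is therefore more likely to be called again in the same direction. In limma 433 features differed between dcr1Δ and dcr1ΔC33, 180 higher and 253 lower in dcr1Δ, and 847 with the replicate block. Between dcr1Δ and dcr1-SHSS 1456 differed, 971 higher and 485 lower in dcr1Δ, and 1938 with the block.

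Of the 154 features higher in dcr1Δ than in wild type, 79 were lower in dcr1Δ than in both other mutants. Among all 5483 features, 253 were lower in dcr1Δ than in dcr1ΔC33 and 485 lower than in dcr1-SHSS. How many of all features were lower than in both was not counted. cta3 averaged 10.93 ± 0.30 in dcr1Δ, against 12.24 ± 0.05 in dcr1ΔC33 and 12.46 ± 0.26 in dcr1-SHSS (SD, n = 3), with differences of -1.31 ± 0.15 and -1.53 ± 0.15 (SE, adjusted p 0.00125 and 0.000232). frp2 differed by -1.13 ± 0.06 and -1.24 ± 0.06, urh1 by -1.54 ± 0.11 and -1.52 ± 0.11, and ecl1 by -0.67 ± 0.11 and -0.61 ± 0.11. For these genes the deletion had the smaller increase over wild type.

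Of the 154, 43 passed no difference against either mutant, and SPNCRNA.231, SPNCRNA.232, SPNCRNA.234 and SPNCRNA.373 of the centromeres were among them. The dim SPNCRNA.481 was higher in dcr1Δ than in both, by 0.92 ± 0.16 and 0.77 ± 0.16 (adjusted p 0.00895 and 0.00725). SPNCRNA.234 differed from dcr1ΔC33 by -0.24 ± 0.25 and from dcr1-SHSS by -0.06 ± 0.25, and SPNCRNA.373 by 0.42 ± 0.18 and -0.15 ± 0.18, with adjusted p from 0.158 to 0.881 in limma. With SEs of 0.25 and 0.18, these tests did not resolve a difference such as the 0.42 of SPNCRNA.373. ura4 was 0.47 ± 0.10 higher in dcr1Δ than in dcr1-SHSS (adjusted p 0.00883) and 0.30 ± 0.10 above dcr1ΔC33 without passing (adjusted p 0.0926).

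A total of 14 called features lay beyond both other mutants in the direction of their change from wild type, 9 higher and 5 lower in dcr1Δ than in both. They were picked by the same dcr1Δ arrays, so noise in those arrays favours such differences, and the deleted dcr1 is among them. Of all 5483 features, 180 were higher and 253 lower in dcr1Δ than in dcr1ΔC33, and 971 higher and 485 lower than in dcr1-SHSS. The 5 lower were dcr1, gdt1, ftm4, SPAC186.04c and pho1. gdt1 averaged 8.03 ± 0.20 in dcr1Δ, against 11.62 ± 0.17 in dcr1ΔC33, 11.66 ± 0.11 in dcr1-SHSS and 11.84 ± 0.25 in wild type (SD, n = 3). Its differences were -3.59 ± 0.14 and -3.63 ± 0.14 against the mutants (SE, adjusted p 1.98e-07 and 1.88e-07 in limma), and neither mutant passed against wild type.

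ftm4 differed by -1.63 ± 0.20 from dcr1ΔC33 and by -1.97 ± 0.20 from dcr1-SHSS, and SPAC186.04c by -1.09 ± 0.14 and -1.12 ± 0.14. pcm2 and SPAC186.02c, higher in dcr1Δ than in wild type near the same end, were also below the other mutants, with differences from dcr1ΔC33 of -0.58 ± 0.15 and -1.09 ± 0.18. pho1 was 13.39 ± 0.05 in dcr1Δ, 13.74 ± 0.03 in dcr1ΔC33, 13.81 ± 0.03 in dcr1-SHSS and 13.98 ± 0.09 in wild type (SD, n = 3), and all 3 mutants were lower than wild type.

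The 9 higher were pfl9, spo6, cdt1, uds1, chs2, mag2, smp3, SPNCRNA.113 and SPNCRNA.481. spo6 averaged 10.70 ± 0.09 in dcr1Δ, against 10.18 ± 0.02 in dcr1ΔC33 and 10.01 ± 0.12 in dcr1-SHSS (SD, n = 3), with differences of 0.52 ± 0.06 and 0.69 ± 0.06 (SE, adjusted p 0.00173 and 0.000167 in limma). cdt1 differed by 0.33 ± 0.07 and 0.41 ± 0.07. chs2, related to chitin synthases, was higher in dcr1Δ than in wild type by 0.19 ± 0.04 but lower than wild type in dcr1ΔC33 (-0.14) and dcr1-SHSS (-0.35). Of the 9, the calls of spo6, cdt1 and uds1 against wild type held in every refit, although all 3 changes were under 1.5-fold.

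The features higher in dcr1Δ were not spread evenly over the chromosomes. Among protein-coding features 4.70% of 893 on chromosome III were higher, 2.60% of 1805 on chromosome II and 1.41% of 2266 on chromosome I, against 2.44% of all protein-coding features. In counts these were 42, 47 and 32 features, and with the replicate block they were 67, 68 and 61. The median of chromosome III was also shifted slightly, and the part of that shift in these calls was not tested. With each feature set against its wild-type mean, the median of chromosome III exceeded that of chromosomes I and II by 0.036, 0.046 and 0.039 (log2) on the dcr1Δ arrays, against 0.005, 0.003 and -0.004 on the wild-type arrays.

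The means were 0.040 ± 0.005 in dcr1Δ and 0.001 ± 0.005 in wild type (SD, n = 3), and the wild-type mean lies near 0 by construction. The difference of 0.039 had a two-sided exact permutation p of 0.1, the smallest that 3 arrays against 3 can give. That test cannot decide whether the strains differ, because the wild-type arrays set the reference and the shift was seen first. With each chromosome cut into 8 stretches of gene order, all 8 of chromosome III had a median change above 0, from 0.015 to 0.057, and all 16 of chromosomes I and II had one below 0, from -0.024 to -0.003. The same measure was 0.086 to 0.104 on the dcr1ΔC33 arrays and 0.092 to 0.111 on the dcr1-SHSS arrays. The shift was noticed after the data had been seen, DNA copy number was not measured, and its cause was not tested.

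**Figure D5:**
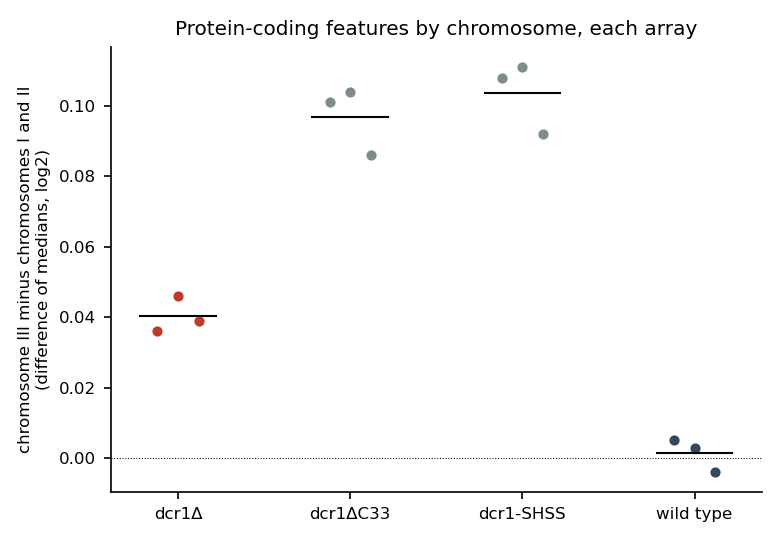
Median change of protein-coding features on chromosome III minus that on chromosomes I and II (log2, each feature relative to its wild-type mean), 1 point per array and a bar at each strain's mean, for dcr1Δ, dcr1ΔC33, dcr1-SHSS and wild type. The dcr1Δ arrays lie between 0.036 and 0.046, above the wild-type arrays at -0.004 to 0.005 and below the arrays of both other mutants.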

How the data were processed

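The authors deposited log2 levels, 1 value per systematic ID and array, from Affymetrix tiling arrays of total RNA, made with R 2.10.0 and affy per the submitters' processing notes. The background step, the normalization, the way probes were summarised, the annotation and the genome build are not stated in the sources at hand. How these steps treat dim features and shared probes could therefore change the values, and no detection calls were used here. Precision is limited by 3 arrays per strain. Of the 5483 IDs, 5337 had a locus tag, and 20 more a synonym, in the RefSeq gene table (assembly ASM294v3), which gave only names, biotypes and gene order.

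The deposited log2 values were taken unchanged into limma 3.58.1 (R 4.3.3). All 12 arrays (4 strains) entered 1 linear model, with variances moderated by empirical Bayes (8 residual and 2.44 prior degrees of freedom). Tests were two-sided at 0.05 after Benjamini-Hochberg adjustment over the whole table, with no fold filter. Each SE is moderated. The steps were also run on simulated arrays with known changes, drawn without any correlation between same-numbered arrays. The deviations of same-numbered dcr1Δ and wild-type arrays from their strain means correlated at 0.151, 0.354 and 0.252, against -0.365 to 0.126 for arrays numbered differently. The dcr1Δ array 1 correlated nearly as well with the wild-type array 3 (0.126) as with the wild-type array 1 (0.151), and the labels state no block. The replicate numbers in the array titles were taken to pair the arrays, and a fit with that block is given where it changes the call of a named feature or moves a count by over 1.5 times, and for some other counts. The alternatives tried were median centring, quantile normalization, a fit without the dimmest 20% of features (those with a mean of 9.46 or less), a fit of the 2 strains' arrays only, an intensity trend with robust moderation, each array left out, an adjusted p under 0.01 and a 1.5-fold filter.

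Named genes were dcr1, the 30 highest and 20 lowest changes called with arrays that do not overlap, up to 4 called members of each gene list (otherwise the member with the smallest p), called neighbours, the genes beside dcr1, and the 10 called features that differed most from each other mutant. Arrays that do not overlap were found in 21.0% of all features. Genes named outside that rule were chosen after their values were seen. The members and lists were chosen with earlier results of these data known. A planned motif search in promoters was not run, and the list of ribosomal proteins was taken by symbol without a check of the product.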

Additional observations from a re-analysis of the deposited data

How the results depend on the processing

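Without a replicate block 172 features passed, 154 higher and 18 lower; with it the counts were 295, 250 and 45, and dcr1Δ against dcr1ΔC33 gave 847 in place of 433. The arrays of the 2 strains alone gave 73, 65 and 8, quantile normalization 100 higher and 28 lower, the intensity trend with robust moderation 29 lower, an adjusted p under 0.01 68, 61 and 7, and a 1.5-fold filter 62, 56 and 6. Leaving out 1 array gave 82 to 168 features, 73 to 151 higher and 7 to 21 lower. The dcr1 change stayed between -5.11 and -4.89. The chromosome III difference (0.039) was 0.052 without the dimmest and brightest of 5 level groups, 0.042 after quantile normalization, both chosen after seeing the data, and 0.036 to 0.042 without 1 array. The svf1 change of 0.00 turned to -0.0068 with median centring and to -0.0084 and -0.0020 without the dcr1Δ array 1 and the wild-type array 1; no other feature chosen by the naming rule changed sign. inv1 (0.94) and imp3 (0.36) passed without the wild-type array 1. The causes were not tested. Dim features are a limit: 153 had a wild-type mean no higher than the deleted dcr1.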
